A study of Mus musculus with 16 samples.

Results

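Chemokines and their receptors were followed through nephrotoxic serum nephritis in the glomerular extracts of 16 female mice. The set holds the genes whose single annotated symbol is Ccl, Ccr, Cxcl or Cxcr followed by a digit, or Cx3cl1, Cx3cr1, Xcl1, Xcr1 or one of Ackr1 to Ackr4. It came to 56 genes, 36 ligands and 20 receptors, of 30142 genes that were measured by a probeset with 1 symbol. No measured value was used to choose them. Ackr2, Ackr3, Ccl27b and the Ccl21 copies had no such probeset and were not analysed with the set.

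The knockout mice lacked oestrogen receptor alpha, the nuclear receptor encoded by Esr1, on a C57Bl/6 background, and the wild types were C57Bl/6. Nephrotoxic serum of sheep, which holds antibodies to the basement membrane of the glomerulus and so sets off nephritis, was given into the abdominal cavity at 8 ul per g. In each genotype 2 mice were killed untreated, 2 at 18 hours, 2 at 6 days and 2 at 2 weeks after it. RNA of each mouse went to 1 Affymetrix array, and values are the deposited log2 values, whose exact transformation is not given in the sources used here. Differences are therefore in deposited log2 units and not folds of RNA. The deletion's extent and the ages of the mice are likewise not given there.

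Chemokines are small secreted proteins that steer leukocytes along concentration gradients by binding receptors coupled to G proteins. Ligands of Cxcr2 draw neutrophils, Ccl2 draws monocytes that carry Ccr2, and the ligands of Cxcr3, which interferons induce, draw activated T cells. In glomerulonephritis they are made by injured glomerular and tubular cells and by the leukocytes that arrive, and atypical receptors take them up without G protein signalling.

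Several arrays stood apart from their labels or replicates. The Esr1 probeset averaged 7.44 ± 0.18 in knockouts and 6.90 ± 0.35 in wild types (SD, n = 8 each). It was not lower in the knockouts, and because the position of its probes relative to the deletion is not known here it does not check the labels. Abcc3, a transporter gene that separated the genotypes in untreated mice, read 6.50 and 12.93 on the arrays labelled knockout at 18 hours, against 13.09 and 6.25 on those labelled wild type. Both 18-hour replicate 2 arrays thus lay with the other genotype, and every 18-hour comparison by genotype goes by labels that Abcc3 contradicts. Havcr1, a marker of tubule injury, read 7.17 and 12.77 in the knockouts at 2 weeks, against 13.23 and 12.56 in the wild types. Replicate 1 of the 2-week knockouts therefore lay near the untreated knockouts (7.95 and 7.28). The fit was repeated on 14 arrays, without both 18-hour replicate 2 arrays, and on 13, also without that knockout array.

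The members were dim. Their means over the 16 arrays ran from 3.73 to 9.51 with a median of 5.44, against a median of 6.0 over all genes. Of the ligands 14 of 36, and of the receptors 13 of 20, lay below the 40th percentile of all genes. The 23 background probesets had means between 2.75 and 6.43, and 43 members lay at or below the highest of these. The extracts held RNA of glomeruli and tubules alike, with list means per array of 8.52 to 10.86 for 10 podocyte markers and 12.88 to 16.24 for 12 proximal tubule markers.

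At 2 weeks after serum, averaged over the genotypes, 10 members rose and 0 fell at an adjusted p under 0.05 (limma, Benjamini-Hochberg over all genes). That was 17.9% of the members, against 9.34% of all genes, 5.1% higher and 4.24% lower. In wild types 13 members rose and 1 fell, 25% against 8.04% of all genes, 4.81% higher and 3.23% lower. In knockouts 0 members passed, against 0.109% of all genes, while 4 of 56 members and 2488 of 30142 genes had an unadjusted p under 0.05. All 4 of the 2-week arrays lay above all 4 untreated ones for 7 members, and 7.08% of all genes were so placed. At 6 days this held for 6 members and 7.38% of all genes, and at 18 hours for 1 member and 3.04%. At 6 days 1 member passed, against 0.889% of all genes, and at 18 hours 0 of 30142 genes passed, with 4 members and 1266 genes at an unadjusted p under 0.05. All comparisons with untreated mice of a genotype share the same 2 arrays. In a bulk extract, more cells that make a transcript and more transcript per cell cannot be told apart.

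**Figure D1:**
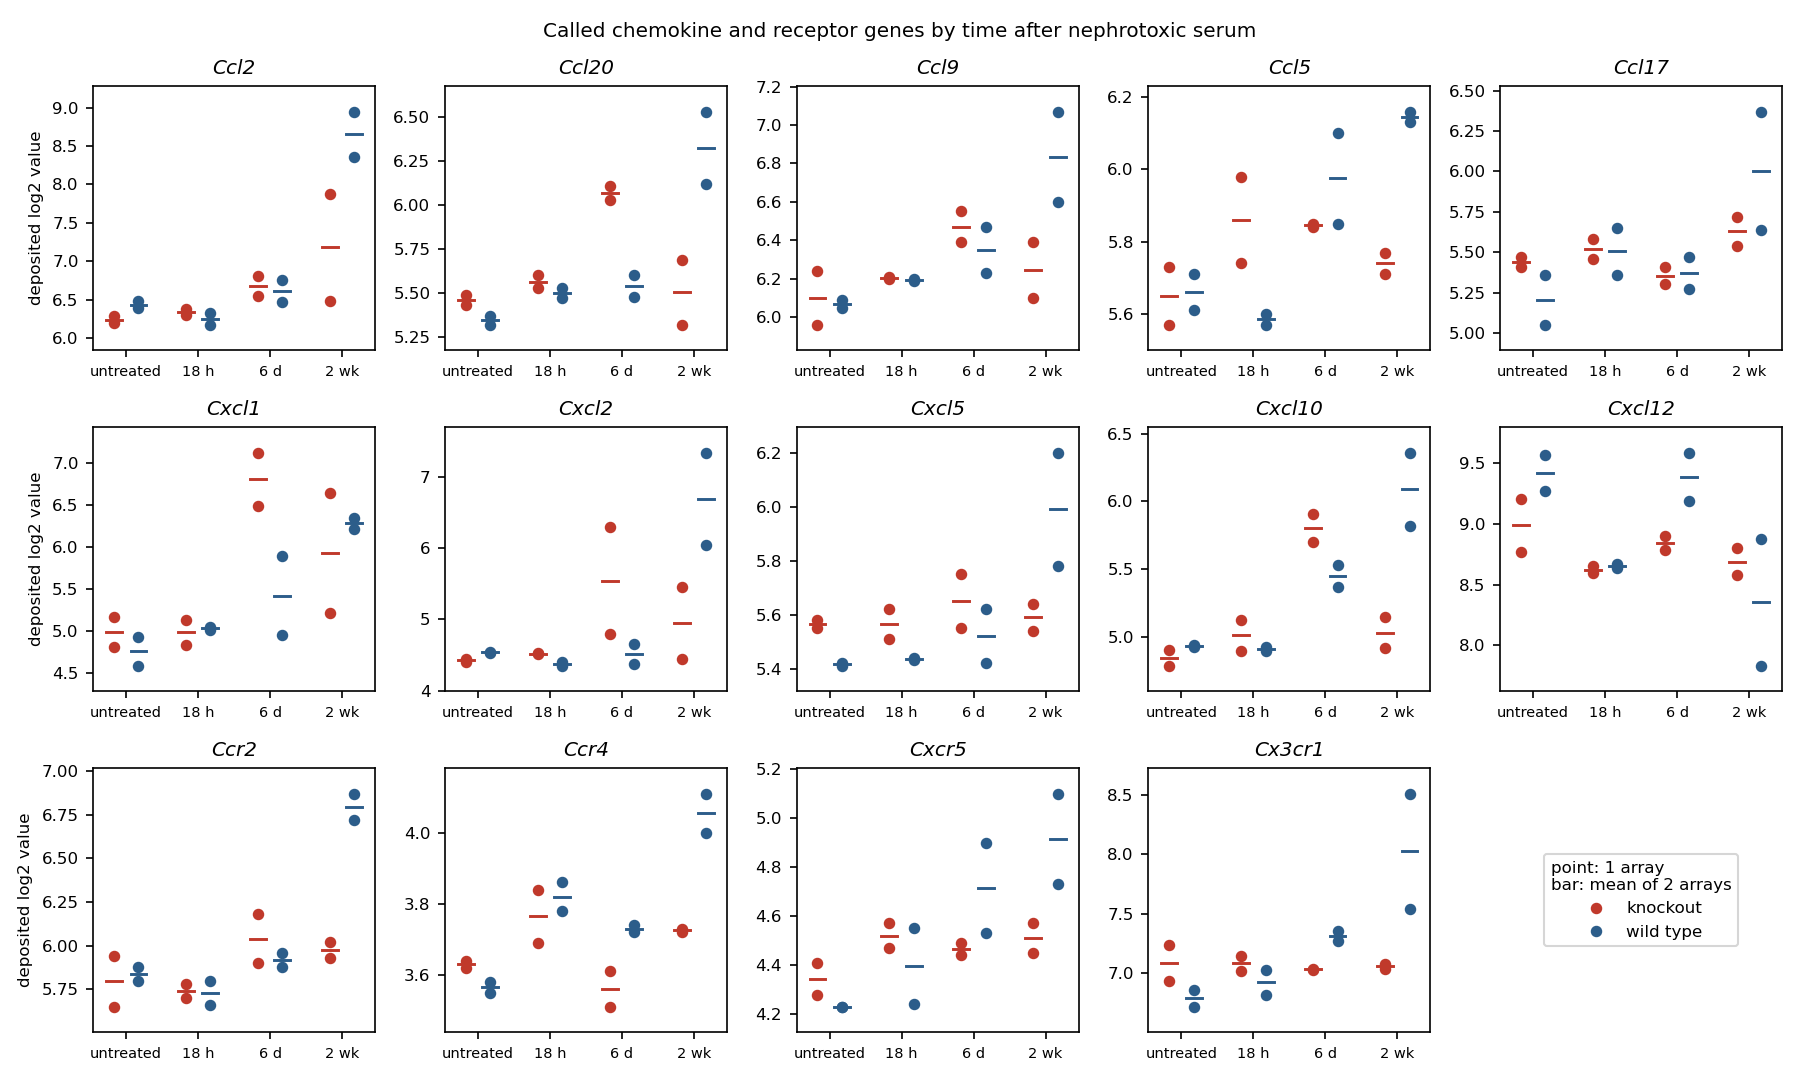
Deposited log2 values of the 14 members called in any comparison, by time, with knockouts (red) left of wild types (blue). Each point is 1 array and each bar the mean of 2. In 8 of the panels both wild type arrays at 2 weeks lie above every other array, and in the Cxcl12 panel they lie below both untreated wild type arrays.

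Among the 4 ligands of Cxcr2, the neutrophil receptor, Cxcl1 and Cxcl2 rose at 2 weeks averaged over the genotypes, and Cxcl5 also rose in wild types. Stretches of 250 bases before the start are shown for Cxcl1 and Cxcl2, and below for Cxcl10, because these are the called ligands whose stretch holds a motif that NF-kappaB or interferon-driven factors are known to read. The sequences are from RefSeq (GRCm38.p6), read 5′ to 3′ along the gene, with motif matches in capitals. Cxcl1 lies on the plus strand at chr5:90890995-90891244 and Cxcl2 on the plus strand at chr5:90903649-90903898.
Cxcl1: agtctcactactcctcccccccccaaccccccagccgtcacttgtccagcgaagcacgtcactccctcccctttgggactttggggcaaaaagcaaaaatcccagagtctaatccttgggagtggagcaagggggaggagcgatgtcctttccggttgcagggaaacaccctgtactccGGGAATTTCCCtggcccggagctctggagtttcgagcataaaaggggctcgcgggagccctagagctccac
Cxcl2: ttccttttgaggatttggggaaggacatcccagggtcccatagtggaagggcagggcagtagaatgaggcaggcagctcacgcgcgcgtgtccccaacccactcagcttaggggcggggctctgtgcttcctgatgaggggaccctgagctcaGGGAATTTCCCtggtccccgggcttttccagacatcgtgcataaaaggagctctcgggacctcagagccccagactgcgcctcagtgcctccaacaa

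The capitals mark a form of the NF-kappaB site whose central pair of bases was left free, searched on both strands. In both genes the matches on the 2 strands overlap in 1 run of letters. This motif stood in 1.21% of 32851 promoters of that length, and in 6 of 45 promoters of 41 members, those of Ccl1, Ccr3, Cxcl1, Cxcl2, Cxcl3 and Cxcl10. A match describes letters and is not a bound site. Other forms of the NF-kappaB site were not searched. A promoter was available for 10 of the 14 called members, and not for Ccl2, Ccl5, Cxcl5 or Cxcr5, which were not searched.

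Cxcl1, a neutrophil attractant, read 4.80 and 5.16 in untreated knockouts, 4.83 and 5.13 at 18 hours, 6.49 and 7.13 at 6 days and 5.21 and 6.65 at 2 weeks. In wild types it read 4.58 and 4.93 untreated, 5.05 and 5.01 at 18 hours, 4.95 and 5.89 at 6 days and 6.35 and 6.22 at 2 weeks. All 4 arrays at 2 weeks lay above all 4 untreated ones, and the highest values were those of the 6-day knockouts. The difference at 2 weeks was 1.24 ± 0.30 (SE) averaged over the genotypes (adjusted p = 0.0303) and 1.53 ± 0.42 in wild types (adjusted p = 0.0486). At 6 days it was 1.25 ± 0.30 and did not pass (adjusted p = 0.0798), but it passed on 13 arrays (adjusted p = 0.0281). In knockouts the differences were 1.83 ± 0.42 at 6 days (adjusted p = 0.215) and 0.95 ± 0.42 at 2 weeks (adjusted p = 0.598), and the second was 1.67 ± 0.38 on 13 arrays (adjusted p = 0.0484).

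Cxcl2, a close relative of Cxcl1 with the same receptor, read 4.45 and 4.40 in untreated knockouts, 4.51 and 4.53 at 18 hours, 4.79 and 6.29 at 6 days and 4.44 and 5.45 at 2 weeks. The wild types read 4.55 and 4.53 untreated, 4.35 and 4.40 at 18 hours, 4.38 and 4.65 at 6 days and 6.04 and 7.34 at 2 weeks. Replicate 1 of the 2-week knockouts was at the untreated level, and both wild types at 2 weeks were far above it. Cxcl2 rose by 1.33 ± 0.34 averaged over the genotypes (adjusted p = 0.0376) and by 2.15 ± 0.48 in wild types (adjusted p = 0.029). Its mean over the arrays, 4.94, lay below the 40th percentile of genes.

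Cxcl5, which epithelial cells are known to make, read 5.55 and 5.58 in untreated and 5.54 and 5.64 in 2-week knockouts. The wild type values were 5.78 and 6.20 at 2 weeks, against 5.41 and 5.42 untreated. Only the wild type pair stood apart, and the rise there was 0.58 ± 0.13 (adjusted p = 0.0317). Cxcl3 did not pass, with 0.46 ± 0.14 in wild types (adjusted p = 0.0605). The 4 Cxcr2 ligands together had a median difference of 0.77 averaged over the genotypes at 2 weeks, against 0.22 over all members and 0.09 over all genes.

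Cxcl10, an interferon-induced ligand of Cxcr3, was the member that passed at 6 days and it rose again at 2 weeks. It lies on the minus strand, with the stretch before its start at chr5:92348890-92349139.
Cxcl10: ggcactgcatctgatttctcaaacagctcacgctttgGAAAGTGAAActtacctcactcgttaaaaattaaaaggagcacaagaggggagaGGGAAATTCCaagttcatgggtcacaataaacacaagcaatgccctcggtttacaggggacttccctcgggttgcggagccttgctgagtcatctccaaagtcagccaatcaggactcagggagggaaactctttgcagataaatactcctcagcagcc
The first capitals mark the core of the interferon-stimulated response element, again with its central pair of bases free, and the second mark the NF-kappaB form. The interferon motif stood in 2.98% of promoters and in those of 3 members, Ccl19, Cxcl10 and Cxcl14.

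Cxcl10 read 4.91 and 4.79 in untreated knockouts, 4.90 and 5.13 at 18 hours, 5.91 and 5.70 at 6 days and 4.92 and 5.15 at 2 weeks. Among wild types the values were 4.94 and 4.93 untreated, 4.90 and 4.93 at 18 hours, 5.37 and 5.53 at 6 days and 5.82 and 6.36 at 2 weeks. At 6 days all 4 arrays lay above all 4 untreated ones, while at 2 weeks the wild types were higher still and the knockouts were back near the untreated values. The difference was 0.73 ± 0.12 at 6 days (adjusted p = 0.0251) and 0.67 ± 0.12 at 2 weeks (adjusted p = 0.0149), averaged over the genotypes, and 1.15 ± 0.16 in wild types at 2 weeks (adjusted p = 0.0101). On 14 arrays the 6-day difference no longer passed (adjusted p = 0.07). Cxcl9 and Cxcl11, the other ligands of Cxcr3, did not pass at 2 weeks, with 0.12 ± 0.07 (adjusted p = 0.233) and 0.25 ± 0.17 (adjusted p = 0.335).

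Of the 15 inflammatory CC ligands 3 rose at 2 weeks averaged over the genotypes, Ccl2, Ccl20 and Ccl9, against 1536 of 30142 genes. A positive difference was seen in 14 of these ligands and in 19715 of all genes. In wild types 5 of the ligands rose, against 1450 of all genes. Ccl2, the main attractant of monocytes, read 6.28 and 6.19 in untreated knockouts, 6.37 and 6.30 at 18 hours, 6.55 and 6.81 at 6 days and 6.48 and 7.88 at 2 weeks. In wild types it read 6.39 and 6.48 untreated, 6.17 and 6.32 at 18 hours, 6.47 and 6.75 at 6 days and 8.36 and 8.95 at 2 weeks. Both wild types at 2 weeks were above every other array, and the 2-week knockouts were divided, 1 at the upper end of the untreated range and 1 well above it. Ccl2 rose by 1.58 ± 0.24 averaged over the genotypes (adjusted p = 0.0113) and by 2.22 ± 0.35 in wild types (adjusted p = 0.0118). In knockouts the difference was 0.94 ± 0.35 (adjusted p = 0.503), and 1.64 ± 0.24 on 13 arrays (adjusted p = 0.0194), where replicate 2 stands alone and is taken to vary like the other groups.

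Ccl20, the ligand of Ccr6, read 5.43 and 5.49 in untreated knockouts, 5.53 and 5.60 at 18 hours, 6.11 and 6.03 at 6 days and 5.32 and 5.69 at 2 weeks. The wild types read 5.32 and 5.37 untreated, 5.47 and 5.53 at 18 hours, 5.48 and 5.60 at 6 days and 6.53 and 6.12 at 2 weeks. Its highest knockout values came at 6 days and its highest wild type values at 2 weeks. It rose by 0.51 ± 0.10 at 2 weeks averaged over the genotypes (adjusted p = 0.0205) and by 0.98 ± 0.15 in wild types (adjusted p = 0.011). The 6-day difference in knockouts, 0.61 ± 0.15, did not pass (adjusted p = 0.23).

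Ccl9, a rodent ligand of Ccr1, read 5.96 and 6.24 in untreated and 6.39 and 6.10 in 2-week knockouts. The wild type values were 6.60 and 7.07 at 2 weeks, against 6.05 and 6.09 untreated. The 4 arrays at 6 days lay between 6.23 and 6.55 and overlapped the untreated ones. Ccl9 rose by 0.46 ± 0.12 at 2 weeks averaged over the genotypes (adjusted p = 0.0375) and by 0.77 ± 0.17 in wild types (adjusted p = 0.0257). Ccl6, also a rodent ligand of Ccr1, did not pass in wild types, with 0.74 ± 0.21 (adjusted p = 0.0573).

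Ccl5 and Ccl17, ligands that draw T cells, rose in wild types at 2 weeks and did not pass averaged over the genotypes. Ccl5 read 5.71 and 5.77 in 2-week against 5.57 and 5.73 in untreated knockouts, and 6.16 and 6.13 in 2-week against 5.61 and 5.71 in untreated wild types. The wild type difference was 0.48 ± 0.12 (adjusted p = 0.0337). Ccl17 read 5.54 and 5.72 in 2-week against 5.41 and 5.47 in untreated knockouts, and 5.64 and 6.37 in 2-week against 5.05 and 5.36 in untreated wild types. All 4 of its 2-week arrays lay above the untreated ones, and the wild type difference was 0.80 ± 0.21 (adjusted p = 0.0412).

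The other 10 inflammatory CC ligands did not pass in any comparison of the fit of 16 arrays. They include Ccl3 and Ccl4, which activated macrophages make, and Ccl7 and Ccl12, which bind Ccr2. Ccl8 is among them too, as are Ccl11, Ccl24 and Ccl26, which bind Ccr3. Ccl11 had 0.22 ± 0.09 (adjusted p = 0.143) and Ccl26 -0.25 ± 0.10 (adjusted p = 0.119) at 2 weeks. All 4 of the 2-week arrays were below the untreated ones for Ccl26, which held for 3.71% of all genes.

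Of the 8 other CXC, CX3C and XC ligands 0 rose, and Cxcl12 fell in wild types at 2 weeks. Cxcl12 is the ligand of Cxcr4 and is made by many resident cells, podocytes among them. It read 8.77 and 9.21 in untreated knockouts, 8.60 and 8.65 at 18 hours, 8.79 and 8.90 at 6 days and 8.80 and 8.58 at 2 weeks. Among wild types the values were 9.27 and 9.57 untreated, 8.67 and 8.64 at 18 hours, 9.59 and 9.19 at 6 days and 7.83 and 8.88 at 2 weeks. The wild types at 2 weeks differed by -1.07 ± 0.29 (adjusted p = 0.0478), and all 4 arrays at 18 hours also lay below the untreated ones. Cxcl12 and Cxcl14, a ligand of epithelial tissues, were the 2 members so placed at 18 hours, where 1.59% of all genes were, and neither difference at 18 hours passed (adjusted p = 1 and 0.516).

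Cxcl13, the ligand that draws B cells through Cxcr5, had the largest difference of any member at 2 weeks and the widest spread. It read 8.01 and 6.89 in untreated knockouts, 6.57 and 7.11 at 18 hours, 7.49 and 7.77 at 6 days and 7.35 and 9.88 at 2 weeks. In wild types it read 8.20 and 7.06 untreated, 6.54 and 6.35 at 18 hours, 10.48 and 9.41 at 6 days and 8.98 and 13.18 at 2 weeks. The wild types at 6 days and 2 weeks were all above the untreated arrays, and replicates differed by as much as the groups. The difference at 2 weeks was 2.31 ± 0.80 averaged over the genotypes (adjusted p = 0.0889) and 3.45 ± 1.13 in wild types (adjusted p = 0.0788). Averaged over the genotypes it was 2.95 ± 0.88 on 13 arrays and passed there (adjusted p = 0.0488).

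The membrane-bound ligands Cx3cl1 and Cxcl16 did not pass on 16 arrays. Cx3cl1, the ligand of Cx3cr1, had 0.60 ± 0.18 at 6 days (adjusted p = 0.165), when all 4 arrays lay above the untreated ones. Cxcl16, the ligand of Cxcr6, read 8.70 and 9.97 in knockouts and 10.60 and 10.73 in wild types at 2 weeks, against 8.91 and 9.56 in untreated knockouts and 9.31 and 9.93 in untreated wild types. Its difference averaged over the genotypes was 0.57 ± 0.28 (adjusted p = 0.19). On 13 arrays both passed at 2 weeks, with 0.55 ± 0.16 for Cx3cl1 (adjusted p = 0.04) and 0.89 ± 0.25 for Cxcl16 (adjusted p = 0.0387). Cxcl15, Cxcl17 and Xcl1, the ligand of Xcr1, did not pass on 16 arrays, with 0.07 ± 0.08 for Cxcl15 and 0.24 ± 0.13 for Cxcl17 at 2 weeks.

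Of the 5 CC ligands placed in the homeostatic group, Ccl1, Ccl19, Ccl25, Ccl27a and Ccl28, 0 passed. Ccl1, a ligand of Ccr8, is however known from activated T cells. Ccl1 had 0.25 ± 0.09 at 2 weeks averaged over the genotypes (adjusted p = 0.0965). Ccl28, a ligand of epithelial surfaces that binds Ccr10, read 8.25 and 7.93 in untreated knockouts, 7.85 and 7.85 at 18 hours, 10.55 and 8.96 at 6 days and 11.14 and 9.40 at 2 weeks. The wild types read 9.91 and 9.26 untreated, 8.66 and 8.75 at 18 hours, 10.93 and 10.09 at 6 days and 10.44 and 9.73 at 2 weeks. Its highest value was on replicate 1 of the 2-week knockouts, the array that lay near untreated for Havcr1 and Ccl2. The difference at 2 weeks was 1.34 ± 0.41 averaged over the genotypes (adjusted p = 0.0651) and 2.18 ± 0.59 in knockouts (adjusted p = 0.258). Without replicate 2 of the 2-week knockouts it was 3.05 in knockouts and passed (adjusted p = 0.0197), but that group is then the 1 array that stood apart, taken to vary like the other groups. Ccl19, its pseudogene Ccl19-ps1 and Ccl27a share near-identical copies, so their values are uncertain, and Ccl19-ps1, which was in no role group, did not pass either.

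**Figure D2:**
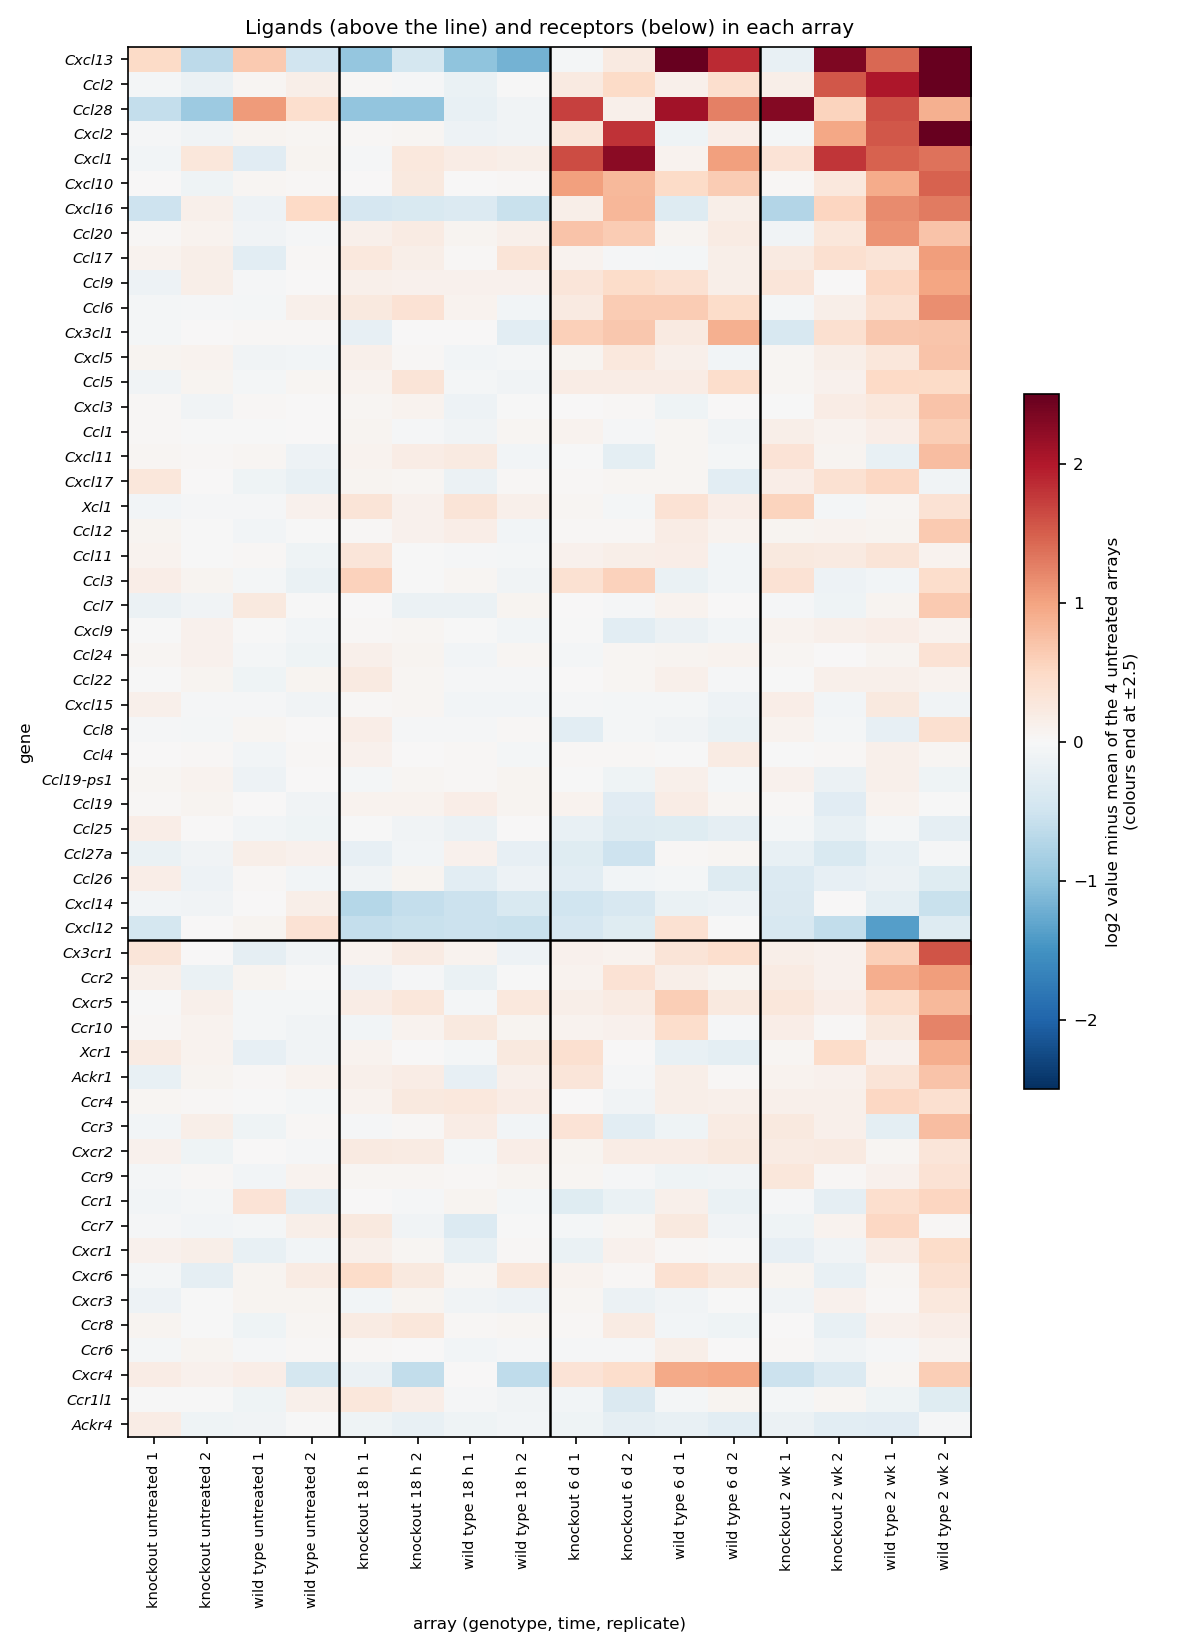
Deposited log2 value of each ligand (above the line) and receptor (below it) in each array, minus the mean of the 4 untreated arrays, with arrays ordered by time and within a time knockouts left of wild types. Colours end at 2.5 units either way. The wild types at 2 weeks, replicate 2 above all, are the most red. Replicate 1 of the 2-week knockouts is close to the untreated arrays for many members, but Ccl28 is far above them. Cxcl16 and Cxcr4 lie below all 4 untreated arrays on it.

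Of the 10 CC receptors 2 rose at 2 weeks averaged over the genotypes, against 1536 of 30142 genes. Ccr2, the receptor by which monocytes answer Ccl2, read 5.94 and 5.65 in untreated knockouts, 5.70 and 5.78 at 18 hours, 5.90 and 6.18 at 6 days and 6.02 and 5.93 at 2 weeks. The wild type values were 5.88 and 5.80 untreated, 5.66 and 5.80 at 18 hours, 5.96 and 5.88 at 6 days and 6.72 and 6.87 at 2 weeks. The 2 wild types at 2 weeks stood above the other 14 arrays, which lay within 5.65 and 6.18. Ccr2 rose by 0.57 ± 0.09 averaged over the genotypes (adjusted p = 0.0125) and by 0.95 ± 0.13 in wild types (adjusted p = 0.00744), against 0.18 ± 0.13 in knockouts (adjusted p = 0.732).

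Ccr4, the receptor of Ccl17 and Ccl22, was the dimmest member. It read 3.73 and 3.72 in 2-week against 3.64 and 3.62 in untreated knockouts, and 4.11 and 4.00 in 2-week against 3.58 and 3.55 in untreated wild types. The 2-week and the 18-hour arrays all lay above the untreated ones, the second by values of 3.69 to 3.86. Its differences were small, 0.29 ± 0.06 averaged over the genotypes (adjusted p = 0.0229) and 0.49 ± 0.09 in wild types (adjusted p = 0.0161). Ccr10, the receptor of Ccl28 and Ccl27a, did not pass, with 0.81 ± 0.25 in wild types (adjusted p = 0.07). The other CC receptors, Ccr1, Ccr1l1, Ccr3, Ccr6, Ccr7, Ccr8 and Ccr9, did not pass in any comparison of 16 arrays.

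Of the 8 CXC, CX3C and XC receptors 2 rose at 2 weeks averaged over the genotypes, against 1536 of 30142 genes. Cx3cr1, the receptor of monocytes and resident macrophages for Cx3cl1, read 7.08 and 7.04 in 2-week against 7.24 and 6.94 in untreated knockouts. Among wild types the values were 7.54 and 8.51 at 2 weeks, 7.27 and 7.36 at 6 days and 6.72 and 6.86 untreated. The knockouts stayed within 6.94 and 7.24 at every time, and the wild types at 2 weeks were above all other arrays. Cx3cr1 rose by 0.61 ± 0.17 averaged over the genotypes (adjusted p = 0.0493) and by 1.24 ± 0.24 in wild types (adjusted p = 0.0202).

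Cxcr5, the B cell receptor for Cxcl13, read 4.57 and 4.45 in 2-week against 4.28 and 4.41 in untreated knockouts, and 4.73 and 5.10 in 2-week against 4.23 and 4.23 in untreated wild types. All 4 arrays at 6 days and all 4 at 2 weeks lay above the untreated ones. It rose by 0.43 ± 0.11 averaged over the genotypes (adjusted p = 0.0385) and by 0.69 ± 0.16 in wild types (adjusted p = 0.0291). Of 7 B cell and plasma cell markers 0 passed at 2 weeks, and their mean ran from 5.23 to 5.27 in knockouts and 5.35 to 5.47 in wild types, against 5.19 to 5.25 in all 4 untreated arrays.

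Cxcr4, the receptor of Cxcl12, had the largest difference of a CXC receptor at 6 days. It read 6.80 and 6.72 in untreated knockouts, 6.48 and 6.01 at 18 hours, 6.95 and 7.05 at 6 days and 6.08 and 6.28 at 2 weeks. In wild types it read 6.78 and 6.17 untreated, 6.62 and 5.99 at 18 hours, 7.57 and 7.60 at 6 days and 6.67 and 7.23 at 2 weeks. At 6 days all 4 arrays lay above the untreated ones, but the difference of 0.67 ± 0.19 did not pass (adjusted p = 0.127). Cxcr2, the receptor of Cxcl1, Cxcl2, Cxcl3 and Cxcl5, did not pass at 2 weeks, with 0.20 ± 0.08 (adjusted p = 0.138). Cxcr1, Cxcr3, Cxcr6 and Xcr1 did not pass in any comparison of 16 arrays.

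Of the atypical receptors, Ackr1, which carries chemokines across venular endothelium, read 4.07 and 4.08 in 2-week against 3.79 and 4.04 in untreated knockouts, and 4.30 and 4.69 in 2-week against 4.01 and 4.07 in untreated wild types. All 4 of the 2-week arrays lay above the untreated ones, though by less than the second decimal at the closest, and the difference of 0.31 ± 0.11 did not pass (adjusted p = 0.108). Ackr4, which takes up Ccl19 and Ccl25, had -0.18 ± 0.08 (adjusted p = 0.183).

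At 2 weeks averaged over the genotypes 6 of 36 ligands (16.7%) and 4 of 20 receptors (20%) were called on 16 arrays, against 9.34% of all genes. The order of these shares turned without replicate 1 of the 2-week knockouts and on 13 arrays, fits that leave 1 array in that group. In both fits the median difference was 0.22 for ligands and 0.15 for receptors, against 0.07 over all genes. On 16 arrays the median difference was 0.23 for ligands and 0.19 for receptors, against 0.09 over all genes. In wild types it was 0.34 for ligands and 0.36 for receptors, against 0.13 over all genes. The range was wider among ligands, from -0.68 to 2.31, than among receptors, from -0.18 to 0.61, and receptors were the dimmer group. The difference between the classes was not tested. Ligand and receptor were both called in wild types for Ccl2 with Ccr2 and for Ccl17 with Ccr4, while Cxcr2, Ccr6 and Cxcr3 did not pass where their ligands Cxcl1, Ccl20 and Cxcl10 did.

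**Figure D3:**
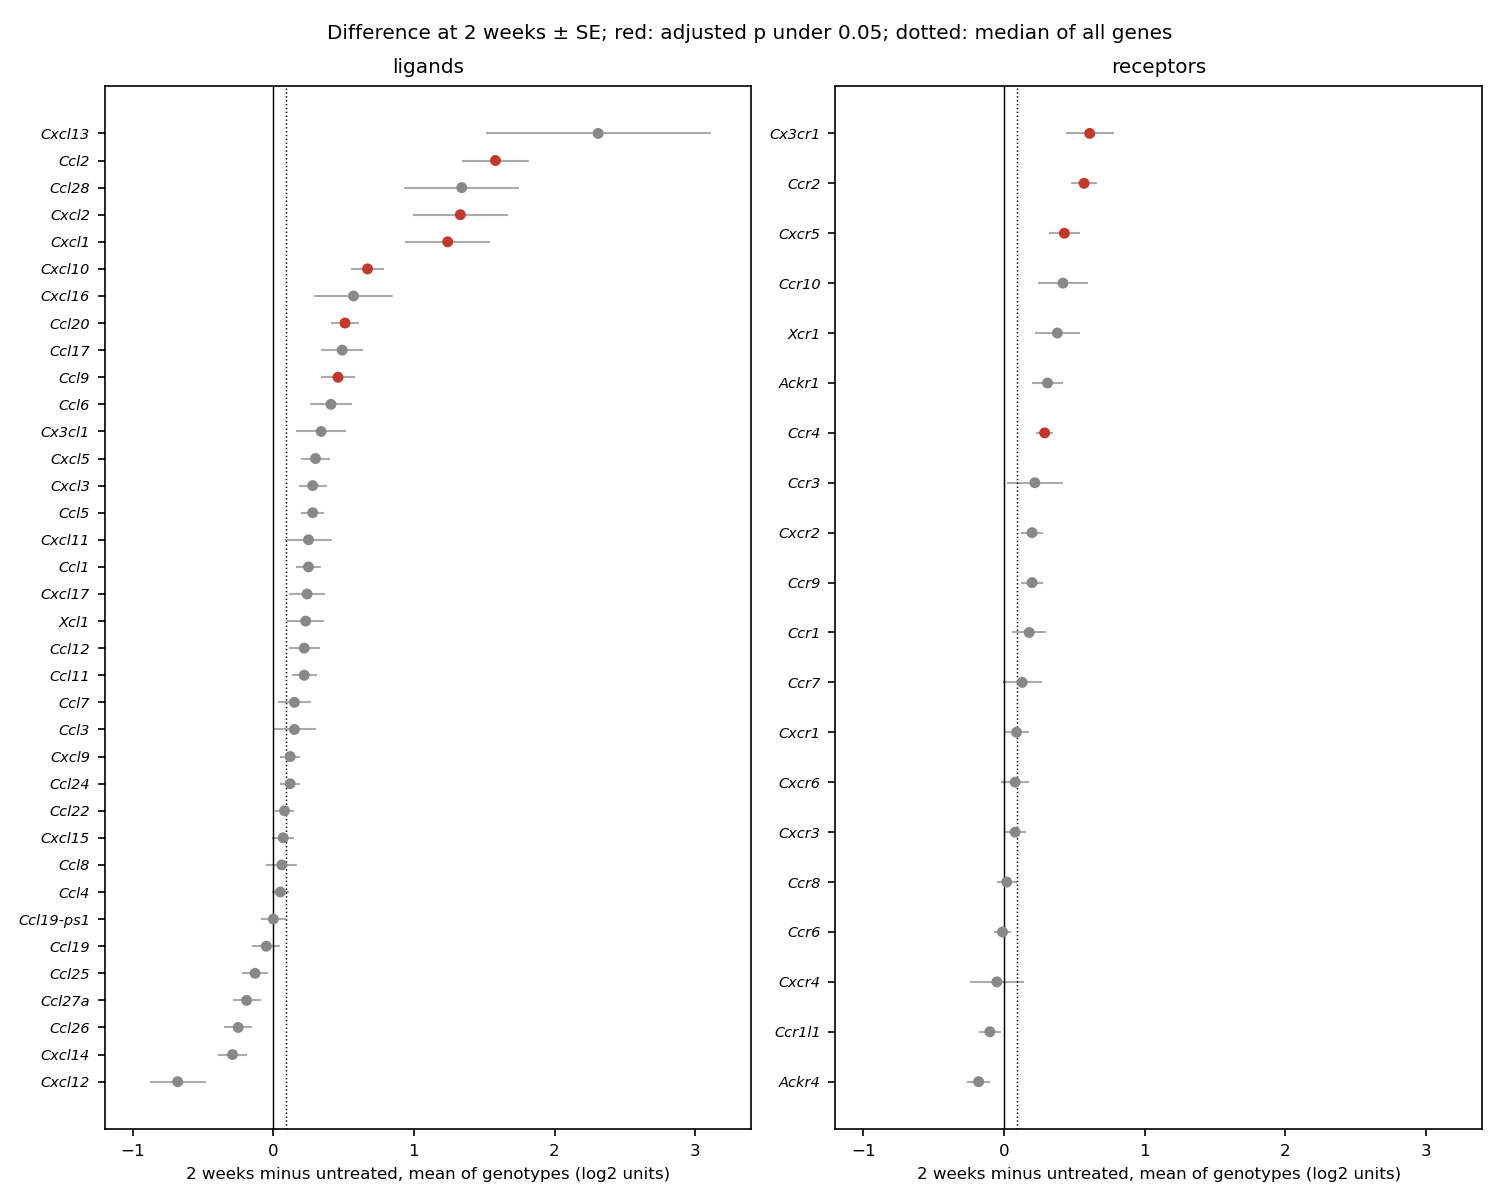
Difference in deposited log2 units between 2 weeks after serum and untreated, averaged over the genotypes, with its standard error, for 36 ligands (left panel) and 20 receptors (right panel). Red points passed at an adjusted p under 0.05 and the dotted line is the median of all genes (0.09). The 10 red points all lie right of that line, and Cxcl13 has the largest difference with the widest error.

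Replicate 2 of the 2-week wild types had the highest median over all genes, 6.22, against 5.92 to 6.09 on the other arrays. The median of dim genes, those below the 40th percentile, was 4.83 on it, against 4.47 to 4.69 on the others. The remaining genes had a median of 7.84 on it, within the 7.75 to 7.88 of the others. Of the members 27 of 56 were dim. After quantile normalization the median difference of all genes in wild types at 2 weeks became -0.01, against 0.13 as deposited, and the share of higher among called genes became 44.3%, against 59.8%. The members called in wild types were then Ccl2, Ccl20, Ccr2, Cx3cr1 and Cxcl10, all higher. Averaged over the genotypes, Ccl2, Ccr2 and Cxcl10 were higher, with 1.51, 0.42 and 0.52, and Ackr4, Ccl26 and Cxcl14 were lower, with -0.32, -0.42 and -0.40, while 35.5% of called genes were higher, against 54.6% as deposited. The median difference of members averaged over the genotypes was then 0.07, against 0.22 as deposited. Ccr4 and Cxcr5, both dim receptors, did not pass after this scaling. The members called after it are only named, and were not set against the share of all genes called.

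The 2-week counts also rested on single arrays, and the share over all genes moved with them. Without wild type 2-week replicate 1 that group is only replicate 2, the array with the highest median of dim genes. The 10 members called averaged over the genotypes (17.9%, against 9.34% of all genes) became 0 without knockout untreated replicate 2 (0.332% of all genes), 3 without knockout untreated replicate 1 (0.946%), 1 without wild type untreated replicate 2 (0.544%), 3 without wild type untreated replicate 1 (2.27%), 6 without either 18-hour knockout array (6.29%), 6 without wild type 2-week replicate 2 (5.62%) and 27 without wild type 2-week replicate 1 (23.3%). The 14 called in wild types (25%, against 8.04% of all genes) became 0 without either wild type untreated array (0.106% without replicate 1 and 0% without replicate 2), 9 without either untreated knockout array (3.95%), 5 without wild type 2-week replicate 2 (0.766%) and 27 without wild type 2-week replicate 1 (24.7%). On 14 arrays 5 members were called averaged over the genotypes, Ccl2, Ccr2, Cxcl10, Ccl20 and Ccr4, or 8.93% against 4.09% of all genes. In wild types 6 were called on 14 arrays, these and Cx3cr1, or 10.7% against 2.85%. On 13 arrays 10 members were called averaged over the genotypes, of which 7 were shared with the fit of 16 arrays, but this 17.9% stood against 19.3% of all genes, so that the members were not called more often than genes at large. In wild types the 14 called on 13 arrays, 25%, stood against 12.9%. In knockouts the 2 members called on 13 arrays, 3.57%, stood against 4.35%, again no more often than all genes.

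The series asks how oestrogen receptor alpha bears on this nephritis, so the genotypes were compared at each time. At 2 weeks Ccr2 and Cxcl10 were lower in knockouts, and 0 were higher, 2 of 56 members against 0.182% of all genes, 0.146% lower and 0.0365% higher. Ccr2 read 6.02 and 5.93 in knockouts, against 6.72 and 6.87 in wild types, a difference of -0.82 ± 0.13 (adjusted p = 0.0421). Cxcl10 read 4.92 and 5.15 in knockouts, against 5.82 and 6.36 in wild types, a difference of -1.05 ± 0.16 (adjusted p = 0.0421). The genotypes did not overlap for either gene. Ccl2, with -1.47 ± 0.35, did not pass (adjusted p = 0.106), nor did Ccl20, with -0.82 ± 0.15 (adjusted p = 0.06), Cx3cr1, with -0.97 ± 0.24 (adjusted p = 0.114), or Cxcl2, with -1.75 ± 0.48 (adjusted p = 0.134). The median difference was -0.26 over members and -0.06 over all genes. Of the 56 members 22 had an unadjusted p under 0.05, against 5841 of 30142 genes.

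Each of these 2 calls was kept in 4 alternatives, of 24 for Ccr2 and 23 for Cxcl10, while the differences stayed between -0.89 and -0.73 for Ccr2 and between -1.32 and -0.78 for Cxcl10. On 14 and on 13 arrays 0 members passed, against 0.0365% and 0.0199% of all genes, and after quantile normalization the adjusted p was 0.0686 for Ccr2 and 0.0762 for Cxcl10. Both calls were kept in 2 fits that leave 1 array in a 2-week group, which is taken to vary like the other groups. Without replicate 2 of the 2-week knockouts the differences were -0.77 for Ccr2 and -1.17 for Cxcl10. The knockout group is then only replicate 1, the array that lay near the untreated knockouts for Havcr1. Without replicate 1 of the 2-week wild types the differences were -0.89 for Ccr2 and -1.32 for Cxcl10. The wild type group is then only replicate 2, the array with the highest median of dim genes. Leaving out any other single array gave 0 members. In untreated mice, at 18 hours, at 6 days and averaged over the 4 times 0 members passed, against 0%, 0%, 0.00664% and 0% of all genes. Of the 56 members 1, 2, 5 and 7 had an unadjusted p under 0.05, against 1564, 707, 1457 and 3514 of 30142 genes. On the arrays without the 18-hour replicates that Abcc3 contradicts, 0 members passed averaged over the 4 times either, but 1.72% of all genes did on 14 arrays and 2.61% on 13. Averaged over the 4 times Ccl2 differed by -0.55 without replicate 2 of the 2-week knockouts, the only fit run in which a member passed. That fit too has only replicate 1 as its 2-week knockout.

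The difference of the serum responses, which tests whether genotype changes the response itself, gave 0 members and 0% of all genes at 18 hours, 6 days and 2 weeks on 16 arrays. At 2 weeks 14 of 56 members and 2244 of 30142 genes had an unadjusted p under 0.05. The smallest adjusted p of a member was 0.602, for Ccl20, whose response was lower in knockouts by a difference of -0.93 ± 0.21. Cxcl10 had -0.96 ± 0.23 and Ccr2 -0.77 ± 0.18 (adjusted p = 0.607 each). On 16 arrays a rise that passed in wild types and not in knockouts was thus not shown to differ between them. Without replicate 1 of the 2-week wild types the difference was -1.75 for Cx3cr1, -1.23 for Cxcl10 and -0.84 for Ccr2. The wild type group is then only replicate 2, the array with the highest median of dim genes. Without replicate 2 of the 2-week knockouts it was -1.97 for Ccl2 and -1.11 for Ccl20. The knockout group is then only replicate 1, the array that lay near the untreated knockouts for Havcr1. Members passed in these fits, each of which leaves 1 array in a 2-week group, taken to vary like the other groups. In the other alternatives 0 members passed.

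Genes that act around the chemokines were read at 2 weeks, averaged over the genotypes. In that comparison 1536 of 30142 genes rose and 1279 fell. Of 20 genes that induce chemokine genes or carry their signals 8 rose, with Irf1, a transcription factor of the interferon response, at 0.58 ± 0.09 (adjusted p = 0.00895), Ifngr1, a chain of the interferon gamma receptor, at 1.10 ± 0.20 (adjusted p = 0.0162), Relb, an NF-kappaB subunit, at 0.77 ± 0.17 (adjusted p = 0.0236) and the tumour necrosis factor receptor Tnfrsf1b at 0.82 ± 0.19 (adjusted p = 0.0271). Of 20 genes of G protein and leukocyte migration signalling 5 rose, Dock2, Fgr, Rac2, Rgs16 and Rgs18, by 0.36 to 0.48. Of 14 adhesion molecules of leukocyte arrest 3 rose, the endothelial and epithelial ligand Vcam1 by 2.76 ± 0.71 (adjusted p = 0.0376) and the integrin chains Itgam and Itgb2 by 0.75 ± 0.14 and 0.53 ± 0.13. Of 9 proteases that trim or shed chemokines 0 passed, with 1.05 ± 0.31 for Mmp2 (adjusted p = 0.0553), and of 6 genes of platelet chemokines and the chemerin axis 0 passed.

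Markers of leukocytes and of tubule cells moved at the same time, when 1536 of 30142 genes rose and 1279 fell averaged over the genotypes. In wild types 1450 genes rose and 974 fell. Of 18 macrophage and monocyte markers 8 rose at 2 weeks averaged over the genotypes and 10 in wild types, led by Lyz2 at 1.71 ± 0.29 (adjusted p = 0.0142). Their mean was 6.29 and 6.71 in knockouts and 7.13 and 7.19 in wild types at 2 weeks, against 6.28 to 6.39 in the 4 untreated arrays. Csf1r, a defining receptor of the lineage, did not pass (-0.70 ± 0.36, adjusted p = 0.21). Of 12 neutrophil and 12 T and NK cell markers 0 passed, and of 7 dendritic cell markers 1 rose, Itgax, by 0.57 ± 0.09 (adjusted p = 0.013). Of 12 proximal tubule markers 10 fell, with a list mean of 15.57 and 13.82 in knockouts and 12.88 and 14.30 in wild types, against 15.67 to 16.24 in untreated mice. Of 10 podocyte, 11 endothelial and 7 mesangial markers 0 passed, but their list means moved with the groups. The mesangial mean was 7.99 and 9.72 in knockouts and 10.09 and 10.39 in wild types at 2 weeks and 9.34 to 10.59 at 6 days, against 8.38 to 9.19 in untreated mice. The endothelial mean was 9.33 and 11.44 in knockouts and 11.01 and 11.91 in wild types at 2 weeks, against 9.83 to 10.73 in untreated mice. Replicate 1 of the 2-week knockouts was the lowest of the 16 arrays for podocytes (8.52), endothelium and mesangium. The part of these cells in the chemokine values was not tested.

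**Figure D4:**
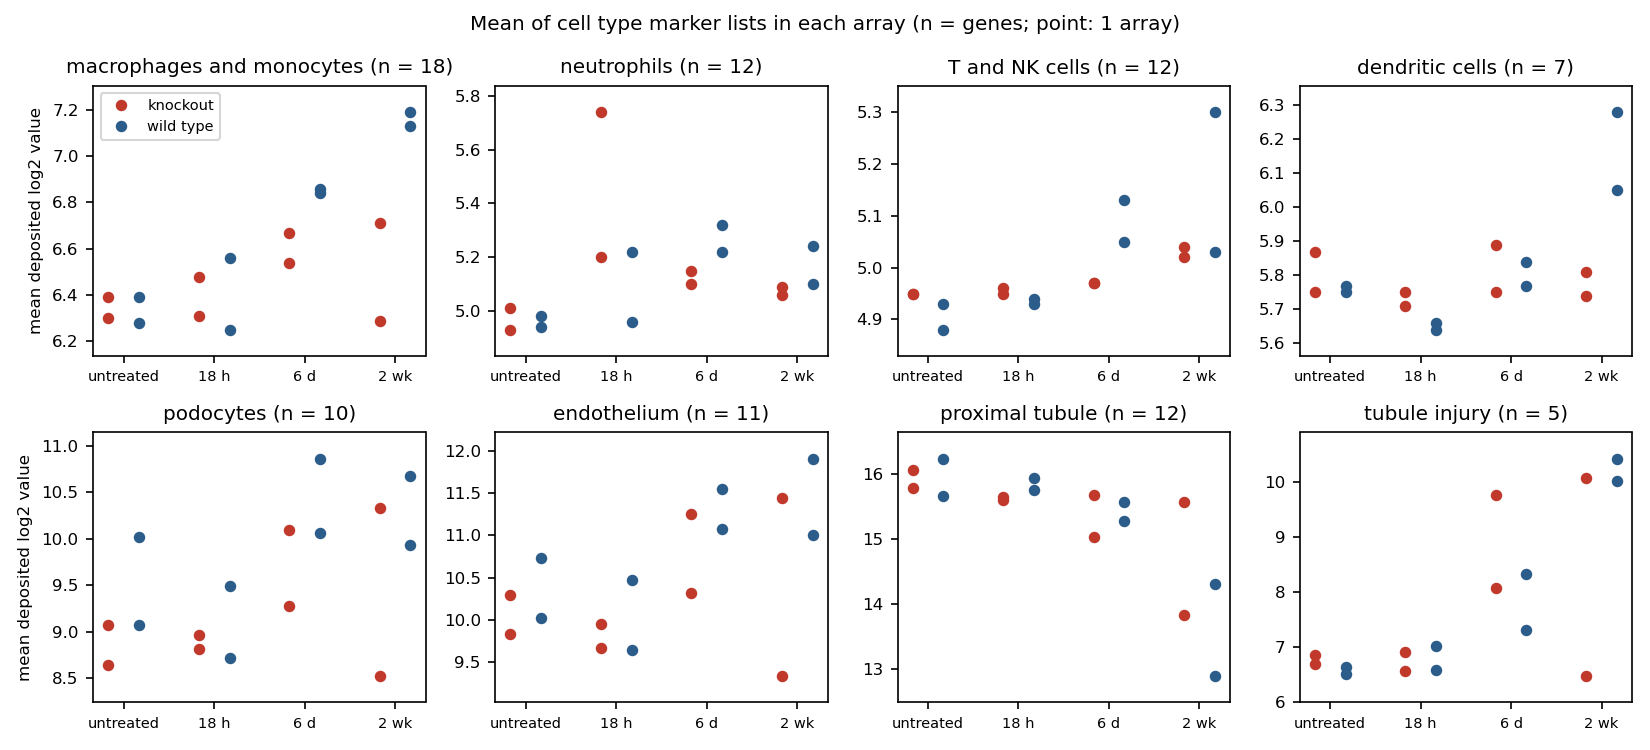
Mean deposited log2 value of 8 lists of cell type markers in each array by time, knockouts (red) left of wild types (blue), with the number of genes in each list. At 2 weeks the macrophage mean was 7.13 and 7.19 in wild types, above every other array, and replicate 1 of the 2-week knockouts lay with the untreated arrays for macrophages (6.29), proximal tubule (15.57) and tubule injury (6.47).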

How the data were processed

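RNA from 10 ng per mouse was amplified with a Pico kit and hybridised to 1 array each, per the labels. The deposited log2 values were made with Affymetrix Expression Console and Transcriptome Analysis Console, per the submitters' processing notes, and the sources used here do not give their versions or the normalization. Of 72688 probesets, 30604 had 1 symbol, 2146 several and 39938 none, and symbols of 827 were updated through the Entrez identifier. The brightest probeset was taken where a gene had several (355 genes, no member), which left 30142 genes, all tested with no filter.

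A mean for each of the 8 groups was fitted in limma 3.58.1 (R 4.3.3) over 16 arrays with an intensity trend (8 residual and 3.03 prior degrees of freedom). In each of 17 comparisons Benjamini-Hochberg adjustment of the p-values ran over all genes. Means above 16 in 152 genes show that the scale carries an unstated transformation. The members, gene lists and tests were chosen with earlier results of these data known. Array values are given for every called member and for the member with the largest difference in each role group, with up to 3 further members of a group named. From the lists outside the set up to 4 genes with the smallest p at 2 weeks are named, and all called ones where few were called. Csf1r was named after its values were seen, as were Abcc3 and Havcr1. Alternatives changed the probeset rule, the filter, scaling, variance model or samples. The fit was tested on simulated data for serum at 2 weeks against untreated, averaged over the genotypes and in wild types. Knockout minus wild type at 2 weeks was tested likewise, and the other comparisons were not. The simulated noise was independent between arrays, with no outlying or mislabelled array. Precision is limited by 2 arrays per group.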

Additional observations from a re-analysis of the deposited data

Results flagged for a closer look

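Ackr2, an atypical receptor that takes up inflammatory CC chemokines, was outside the set because its probeset also carries an older symbol of the same gene. Added to the gene table after its annotation was seen, it read 5.97 and 6.13 in 2-week against 5.91 and 5.84 in untreated knockouts, and 6.24 and 6.57 in 2-week against 6.01 and 5.93 in untreated wild types. It rose at 2 weeks by 0.31 ± 0.08 (SE) averaged over the genotypes (limma adjusted p = 0.0437) and by 0.44 ± 0.12 in wild types (adjusted p = 0.0457). It is raised here because the comparisons of the set did not use its probeset.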

How the results depend on the processing

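Of 407 pairs of a comparison and an alternative, 341 kept the count of called members within 1.5 times, and 9 of 17 comparisons had 0 calls in every fit. The 27 differences called for named members kept their direction in every alternative that could test them. At 6 days averaged over the genotypes, where 1 member was called, the count was 0 with dim genes left out (which removes Cxcl10), 0 on 14 arrays, 2 on 13 arrays, 4 with only the groups compared and 0 to 4 with 1 array left out. At 2 weeks, with 10 called, it was 6 after quantile normalization, 5 on 14 arrays, 0 with only the groups compared and 0 to 27 with 1 array left out. In wild types at 2 weeks, with 14 called, these settings gave 5, 6 and 3, and 0 to 27 with 1 array left out. In knockouts at 2 weeks, with 0 called, the count was 2 on 13 arrays (3.57%, against 4.35% of all genes) and 0 to 2 with 1 array left out, and at 6 days 0 to 2. For knockout minus wild type at 2 weeks, with 2 called, it was 1 with dim genes left out, 0 after quantile normalization, 0 without the intensity trend, 0 with only the groups compared, 0 on 14 arrays, 0 on 13 arrays and 0 to 22 with 1 array left out. Leaving out 1 array gave 0 to 1 averaged over the 4 times and 0 to 13 for the difference of responses at 2 weeks. The cause of these changes was not tested, except that fewer arrays leave fewer degrees of freedom. Where no share of all genes stands beside a count, the count describes only how the calls moved.

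Replicate numbers did not pair the samples: over 28 pairs of groups the replicate deviations correlated between -0.679 and 0.593, 11 of them over 0.1. With replicate number as a block the count was 2 at 6 days averaged over the genotypes and 1 for knockout minus wild type at 2 weeks, and within 1.5 times elsewhere. Ccl19-ps1, at -0.01 at 6 days, became 0.02, 0.04, 0.00 and 0.02 when replicate 2 of the wild type untreated, wild type 6-day, knockout untreated or knockout 6-day arrays was left out, in a range of -0.06 to 0.04 over all arrays. Ccr3 at 2 weeks became -0.04 without wild type replicate 2, in a range of -0.04 to 0.48.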

Other observations

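Ackr3, the atypical receptor of Cxcl12 and Cxcl11, was likewise measured only by a probeset with several symbols. It read 6.04 and 6.54 in untreated knockouts, 6.09 and 6.64 at 18 hours, 6.31 and 6.28 at 6 days and 6.31 and 6.93 at 2 weeks. In wild types it read 6.65 and 6.55 untreated, 6.51 and 6.62 at 18 hours, 6.61 and 6.02 at 6 days and 6.86 and 7.34 at 2 weeks. The wild types at 2 weeks lay above the untreated arrays of both genotypes, and the 2-week knockouts overlapped them.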
